A study of Danio rerio with 12 samples.

Results

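The change in the effect of etv2 genotype between 2 stages of zebrafish development was measured gene by gene in whole embryos. For each gene the genotype difference, the mean log2 value of homozygous minus that of heterozygous libraries, was taken at 24 hpf (hours post fertilization), and the genotype difference at the 15-somite stage was subtracted from it. The result, called the change here, is positive where homozygotes stood higher relative to heterozygotes at 24 hpf than at the 15-somite stage. All 31172 gene rows of the tables of both stages could be joined by gene ID, and 18116 of them, with a median normalized value of 16 or above at both stages, were tested. The 4 groups of 3 libraries each were homozygous embryos at 24 hpf, heterozygous embryos at 24 hpf, homozygous embryos at the 15-somite stage and heterozygous embryos at the 15-somite stage. Every embryo carried the knock-in allele etv2 Gt(2A-Gal4)ci32, in 2 copies or in 1, with UAS:GFP, and came from crosses between carriers; no library without the allele was used here. The allele drives Gal4, and through it GFP, in cells that express etv2, and the GFP pattern served to sort the genotypes. Each library pooled 15 to 20 embryos. The 15-somite embryos were kept at 24 °C and the 24 hpf embryos at 28 °C, so that stage and temperature cannot be told apart.

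Etv2, also named Etsrp, is an ETS-family transcription factor that acts near the top of the program by which mesoderm of the lateral plate becomes endothelium and early myeloid blood. At the 15-somite stage endothelial and blood precursors are gathering at the midline and have formed no vessel that carries blood; at 24 hpf the dorsal aorta and cardinal vein are in place and circulation begins. Related ETS factors such as Fli1a, Fli1b and Erg act in the same lineage. In RNA of whole embryos, fewer cells of a type and less RNA per cell cannot be told apart.

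The targeted gene (ENSDARG00000053868) was low in homozygotes at both stages. On the log2 scale relative to the heterozygous mean of its stage, etv2 stood at -2.86, -3.76 and -2.84 in hom 1, hom 2 and hom 3 at 24 hpf, against 0.02, -0.01 and -0.01 in the heterozygous libraries 1 to 3. At the 15-somite stage it stood at -2.91, -2.96 and -2.61 in the libraries called hom a, hom b and hom 2, against 0.08, -0.03 and -0.05 in the heterozygous libraries 1 to 3. The names hom a and hom b stand for 2 homozygous columns that carry the same header. The groups were far apart at both stages, and the genotype differences, -3.15 and -2.83, gave a change of -0.32 that did not pass the test (SE 0.27, adjusted p = 0.575). Where the counted reads lie relative to the inserted cassette is unknown. All values below by library use this scale and this order of libraries, and SE is the standard error of the change in a limma fit of all 12 libraries, with p-values adjusted by the Benjamini-Hochberg method over all genes tested.

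The deposited values hold no read counts, so total depth is unknown. Relative depth within a stage, estimated from the spacing of low values, spanned 0.959 to 1.06 at 24 hpf and 0.902 to 1.13 at the 15-somite stage. The estimate is rough, as only 43.7% to 57.5% of these low values came out as whole reads within 0.02 read. The 15-somite library het 1 stood apart, with the largest residual SD (0.255, against 0.191 to 0.232 in the other libraries) and the lowest weight when libraries were weighted by their spread (0.365). No 2 libraries held identical values. Markers of the tissues of a whole embryo were present at both stages: 48 of 54 rows of skeletal muscle, 35 of 36 of epidermis and ionocytes, 33 of 37 of neural tissue and 37 of 39 of globin, heme and red cells passed the minimum level.

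Of the 18116 genes tested, 603 (3.33%) changed at an adjusted p below 0.05, 156 lower (0.861%) and 447 higher (2.47%) at 24 hpf than at the 15-somite stage. The median change was -0.48 among the lower and 0.75 among the higher genes, and 23 lower and 166 higher genes changed by at least 1 on the log2 scale. At an unadjusted p below 0.05 there were 1507 lower and 1893 higher genes. Without the 15-somite library het 1 the counts were 159 lower and 532 higher, and over all libraries left out in turn they spanned 32 to 159 and 146 to 532, with the fewest calls of both kinds without het 2 of 24 hpf. The labels do not say that the pools came from separate crosses, so the p-values measure only how far these pools differ among themselves.

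The genotype difference was larger at the 15-somite stage in most called genes, as in most genes tested. All 447 genes called higher had a genotype difference below 0 at the 15-somite stage, and 149 of the 156 called lower had one above 0. The larger of the 2 genotype differences was that of the 15-somite stage in 567 called genes (94.0%), against 68.3% of all genes tested. The libraries also varied more at the 15-somite stage, with residual SDs of 0.211 to 0.255, against 0.191 to 0.208 at 24 hpf. How far this wider spread bears on the larger differences was not tested. In 275 called genes homozygotes were lower by 0.5 or more at the 15-somite stage and within 0.5 of heterozygotes at 24 hpf; in 22 they were higher by 0.5 or more at the 15-somite stage and within 0.5 at 24 hpf. A further 260 called genes stayed below 0.5 at both stages. In 15 genes homozygotes were lower by 0.5 or more at both stages and closer to heterozygotes at 24 hpf, and in 1, per2, they were higher at both stages and closer at 24 hpf. Only 14 called genes had their difference mainly at 24 hpf or a larger one there with the same sign: 8 lower and 3 higher by 0.5 or more at 24 hpf and within 0.5 at the 15-somite stage, and 3 lower at both stages, aqp8a.1, stab2 and vsg1. The remaining 16 differed by 0.5 or more at both stages with opposite signs, 10 higher and 6 lower in homozygotes at 24 hpf. These patterns use the values of the test itself and are a description.

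**Figure D1:**
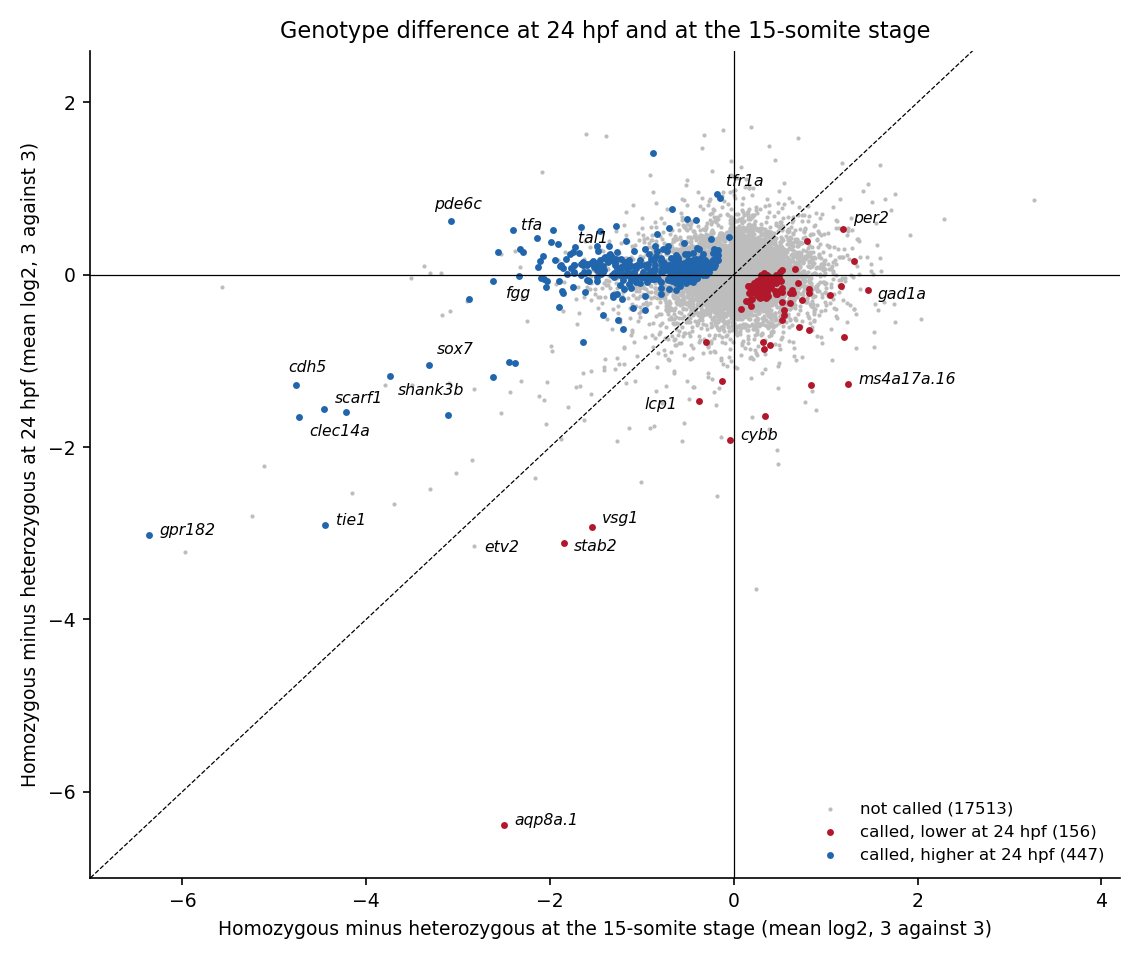
Genotype difference of every gene tested at 24 hpf (vertical axis, log2) against that at the 15-somite stage (horizontal axis, log2); each point is a gene, coloured where the change was called, and the dashed line marks equal differences. The 447 genes called higher lie left of 0 and above the line, most of them near 0 on the vertical axis, while aqp8a.1, stab2 and vsg1 lie below the line.

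Among genes of endothelial surface and junctions, several of those most depleted at the 15-somite stage were closer to heterozygous levels at 24 hpf. Of 35 listed, 34 rows were found and 32 tested; 9 changed upward and 2 downward (34.4% called, against 3.33% of all genes tested). The median change was 0.25, against -0.00242 over all genes tested, with median genotype differences of -1.05 at 24 hpf and -1.35 at the 15-somite stage. The rows of plvapa and sele were below the minimum level, and a member passes that level only where it is well expressed, so these counts are a description of the members tested. The surface lectin gene clec14a (ENSDARG00000026751) stood at -1.77, -1.60 and -1.60 in homozygotes at 24 hpf, against 0.10, -0.05 and -0.05 in heterozygotes. clec14a stood at -4.67, -5.11 and -4.42 in homozygotes of the 15-somite stage, against 0.24, -0.28 and 0.04 in heterozygotes. It was lower in every homozygous library at both stages, 3.15-fold at 24 hpf and 26.6-fold at the 15-somite stage, and its change was 3.08 (SE 0.28, adjusted p = 0.000821). RASIP1, which acts in opening the vessel lumen, stood at -1.70, -1.43 and -1.65 in homozygotes at 24 hpf, against 0.01, 0.17 and -0.17 in heterozygotes. Its 15-somite values were -3.74, -4.44 and -4.48 in homozygotes, against -0.14, 0.08 and 0.06 in heterozygotes. The groups did not overlap at either stage, and the change was 2.62 (SE 0.24, adjusted p = 0.000821). The atypical receptor gene gpr182, with the most negative 15-somite difference of the list, stood at -2.81, -3.34 and -2.90 in homozygotes at 24 hpf, against -0.19, 0.31 and -0.12 in heterozygotes. gpr182 at the 15-somite stage was at -7.56, -6.48 and -5.06 in homozygotes and at 0.11, -0.05 and -0.06 in heterozygotes. Its homozygous libraries of the 15-somite stage were spread over more than 2 log2 units, and the change was 3.35 (SE 0.63, adjusted p = 0.0201). The scavenger receptor gene scarf1, chosen for its place among the 15 most positive changes, stood at -1.45, -1.47 and -1.76 in homozygotes at 24 hpf, against 0.03, 0.01 and -0.05 in heterozygotes. Homozygotes of the 15-somite stage had scarf1 at -4.06, -4.54 and -4.76, against -0.02, -0.14 and 0.17 in heterozygotes. It was lower in homozygotes by 2.95-fold at 24 hpf and 22-fold at the 15-somite stage, with a change of 2.90 (SE 0.27, adjusted p = 0.000821).

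Genes of adhesion, adaptors and kinases of endothelium were called in the same direction. cdh5, which encodes the vascular endothelial cadherin of cell junctions, stood at -0.67, -1.42 and -1.74 in homozygotes at 24 hpf, against 0.08, -0.02 and -0.06 in heterozygotes. cdh5 was measured at -5.89, -3.32 and -5.08 in 15-somite homozygotes, against -0.28, -0.06 and 0.34 in heterozygotes. Its homozygous libraries varied widely at both stages without reaching the heterozygous ones, and the change was 3.48 (SE 0.72, adjusted p = 0.0279). The adaptor gene she had genotype differences of -1.03 at 24 hpf and -2.38 at the 15-somite stage, with a change of 1.35 (SE 0.15, adjusted p = 0.00398). The receptor kinase gene tie1 differed by -2.91 at 24 hpf and -4.45 at the 15-somite stage, and its change was 1.54 (SE 0.37, adjusted p = 0.0425). The ERK phosphatase gene dusp5 differed by -1.63 at 24 hpf and -3.11 at the 15-somite stage and changed by 1.48 (SE 0.35, adjusted p = 0.0411). The VEGF co-receptor gene nrp1b differed by -0.02 at 24 hpf and -0.63 at the 15-somite stage, with no separation of the genotypes at 24 hpf, and changed by 0.61 (SE 0.11, adjusted p = 0.0162). The secreted angioblast gene egfl7 differed by -0.41 at 24 hpf and -0.97 at the 15-somite stage and changed by 0.56 (SE 0.13, adjusted p = 0.0372). shank3b, a scaffold gene known from synapses in mammals, is in none of the lists and was chosen for its place among the 15 most positive changes. It stood at -0.57, -1.3 and -1.66 in homozygotes at 24 hpf, against 0.18, -0.03 and -0.15 in heterozygotes. For the 15-somite stage shank3b was -3.16, -4.24 and -3.84 in homozygotes, against -0.19, 0.02 and 0.17 in heterozygotes. It was lower in homozygotes throughout and changed by 2.57 (SE 0.43, adjusted p = 0.0142).

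The upward count of the surface list was 5 to 10 with 1 library left out, with 7 without the 15-somite library het 1, and 5 or 6 without het 2 or het 3 of the 15-somite stage or without any library of 24 hpf other than hom 3. It was 4 with 1 prior spread for all genes and 5 with no filter on level. Calls of clec14a, RASIP1, gpr182, she, nrp1b, scarf1 and shank3b held without each of the 12 libraries in turn. Leaving out 1 library ended the call of cdh5 in 7 cases (adjusted p 0.0539 to 0.0679), that of tie1 in 10 (0.0577 to 0.0979), that of dusp5 in 10 (0.0512 to 0.0935) and that of egfl7 in 10 (0.0504 to 0.0897). The libraries without which the calls held were hom a, hom b, hom 2 and het 1 of the 15-somite stage and hom 3 of 24 hpf for cdh5. For tie1 they were hom 2 of the 15-somite stage and hom 3 of 24 hpf. For dusp5 and egfl7 they were hom b and hom 2 of the 15-somite stage in the case of dusp5, and het 1 of the 15-somite stage and het 2 of 24 hpf in that of egfl7.

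**Figure D2:**
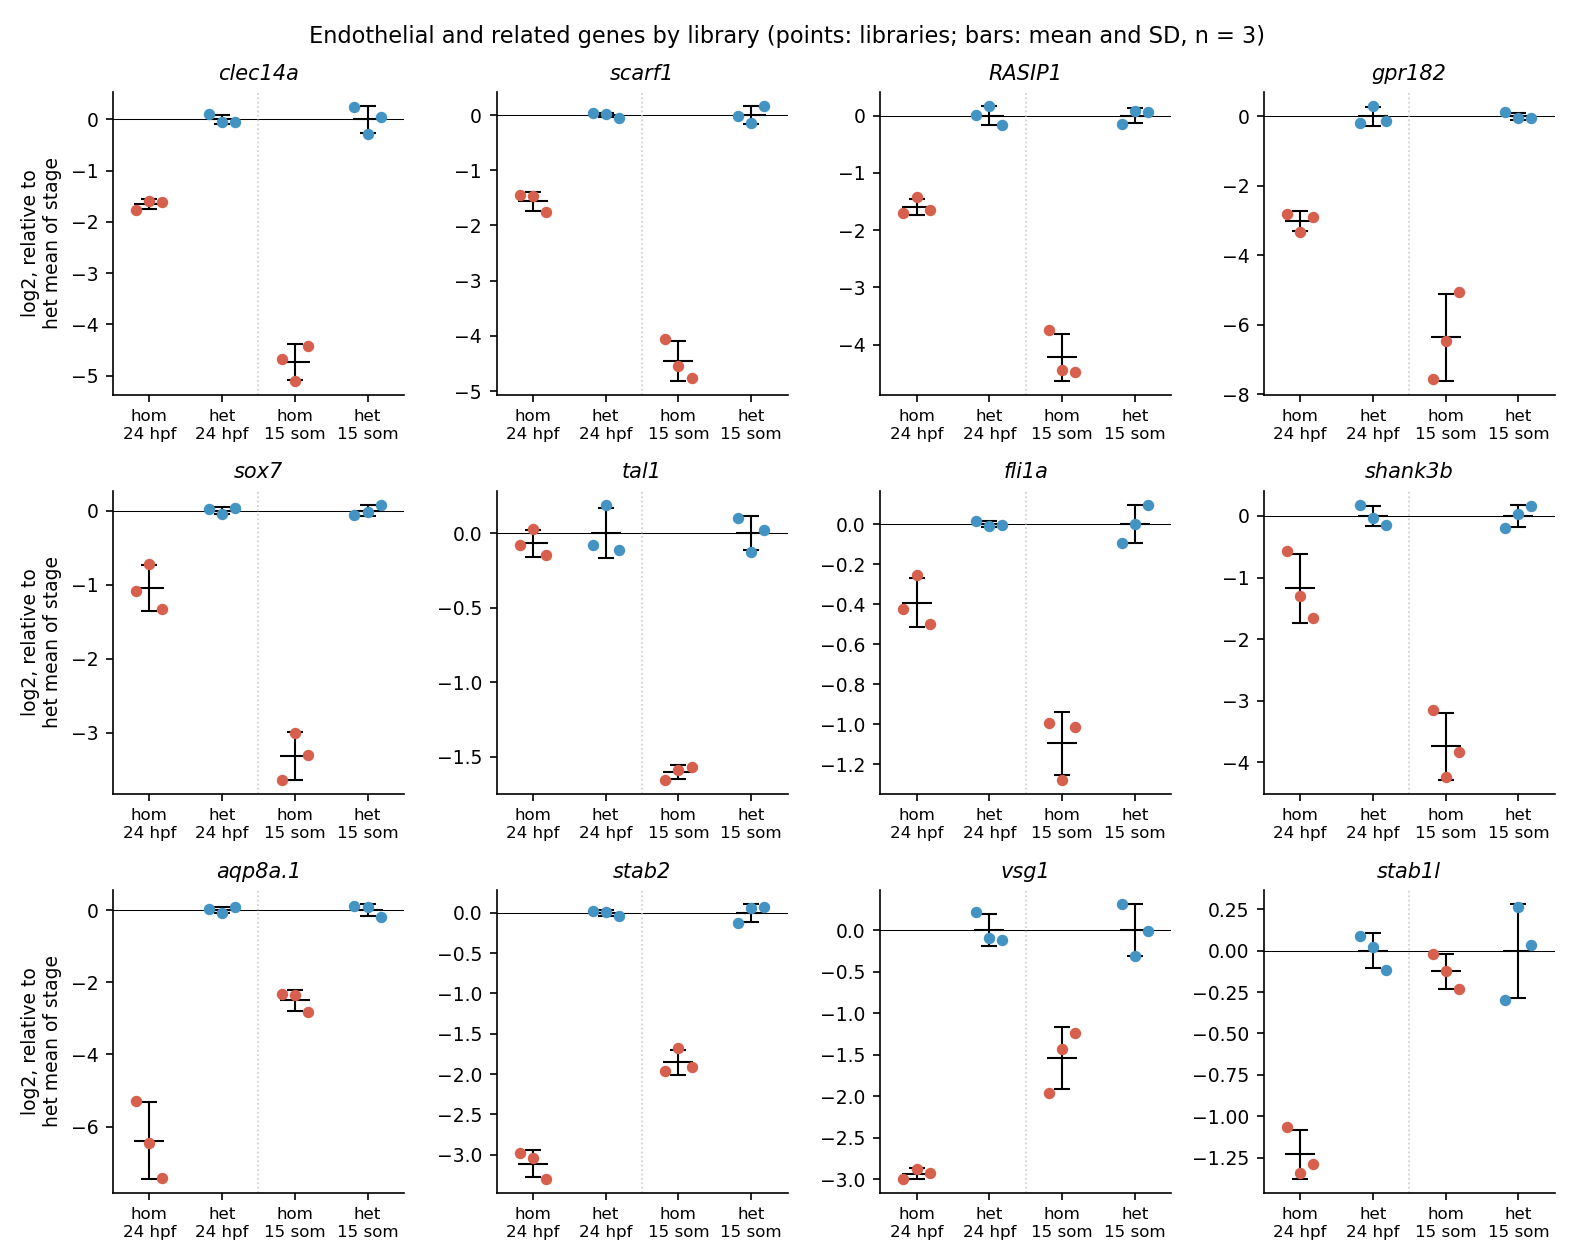
Log2 values by library, relative to the heterozygous mean of each stage, for 12 endothelial and related genes; points are libraries, horizontal ticks means and bars SD (n = 3), with homozygotes left of heterozygotes and 24 hpf left of the 15-somite stage. In clec14a, scarf1, RASIP1, gpr182, sox7, tal1, fli1a and shank3b the homozygous points lie lower at the 15-somite stage, and in aqp8a.1, stab2, vsg1 and stab1l lower at 24 hpf.

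Transcription factors of the endothelial and blood lineages were called in the same direction. Of 24 listed, 22 rows were found and 18 tested, of which 6 changed upward and 0 downward (33.3% called, against 3.33% of all genes); a further gene was lower at an unadjusted p below 0.05. The median change was 0.36, with median genotype differences of -0.12 at 24 hpf and -0.59 at the 15-somite stage. tal1, a partner in the complex that starts blood and endothelial programs, stood at -0.08, 0.03 and -0.15 in homozygotes at 24 hpf, against -0.08, 0.19 and -0.11 in heterozygotes. tal1 stood at -1.65, -1.58 and -1.57 in homozygotes of the 15-somite stage, against 0.10, -0.12 and 0.02 in heterozygotes. Homozygotes lay 3.04-fold below heterozygotes at the 15-somite stage and overlapped with them at 24 hpf, and the change was 1.54 (SE 0.12, adjusted p = 0.000674). The SoxF factor gene sox7 stood at -1.09, -0.72 and -1.33 in homozygotes at 24 hpf, against 0.02, -0.05 and 0.03 in heterozygotes. Its 15-somite values were -3.64, -3.0 and -3.31 in homozygotes, against -0.06, -0.02 and 0.08 in heterozygotes. It stayed lower in every homozygous library at 24 hpf, and its change was 2.27 (SE 0.27, adjusted p = 0.0044). fli1a, the ETS factor gene long used as an endothelial marker, stood at -0.42, -0.26 and -0.50 in homozygotes at 24 hpf, against 0.02, -0.01 and -0.01 in heterozygotes. fli1a at the 15-somite stage was at -0.99, -1.28 and -1.02 in homozygotes and at -0.10, 0.00 and 0.10 in heterozygotes. Both stages kept the genotypes apart, with a change of 0.70 (SE 0.12, adjusted p = 0.0161). lmo2, whose product bridges Tal1 to other factors, differed by -0.63 at 24 hpf and -1.21 at the 15-somite stage and changed by 0.57 (SE 0.12, adjusted p = 0.029). sox18, another SoxF gene, differed by -1.02 at 24 hpf and -2.44 at the 15-somite stage and changed by 1.43 (SE 0.33, adjusted p = 0.0405). A row deposited as klf4, which matched klf17 of the red cell and hatching gland lists and so belongs to 3 lists, differed by 0.29 at 24 hpf and -0.17 at the 15-somite stage and changed by 0.46 (SE 0.08, adjusted p = 0.0161).

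The calls of tal1, sox7, fli1a and klf4 held without each library in turn. That of lmo2 ended without any of 6 libraries, hom b and het 3 of the 15-somite stage and hom 1, hom 2, het 1 and het 2 of 24 hpf (adjusted p up to 0.0709). That of sox18 held only when the 15-somite library het 2 was left out (0.0573 to 0.101 without each other one). The ETS genes erg and fli1b, chosen for mention after their values were seen, had changes of 0.82 and 0.26 that did not pass (adjusted p = 0.232 and 0.642), from genotype differences of -2.49 at 24 hpf and -3.31 at the 15-somite stage for erg and -1.54 at 24 hpf and -1.80 at the 15-somite stage for fli1b.

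In a smaller set of endothelial genes the deficit of homozygotes was deeper at 24 hpf. The aquaporin gene aqp8a.1, which is expressed in zebrafish vessels, stood at -5.30, -6.45 and -7.42 in homozygotes at 24 hpf, against 0.02, -0.09 and 0.08 in heterozygotes. Homozygotes of the 15-somite stage had aqp8a.1 at -2.32, -2.34 and -2.84, against 0.10, 0.10 and -0.20 in heterozygotes. It had the most negative change of all called genes, -3.89 (SE 0.56, adjusted p = 0.00732), with an 83.8-fold lower level at 24 hpf and a 5.66-fold lower level at the 15-somite stage. Its median level was in the lower range of the genes tested, so that its homozygous values at 24 hpf may lie near the floor of 1 and the size is uncertain. stab2, which encodes a scavenger receptor of venous endothelium, stood at -2.98, -3.05 and -3.30 in homozygotes at 24 hpf, against 0.02, 0.01 and -0.04 in heterozygotes. stab2 was measured at -1.97, -1.68 and -1.91 in 15-somite homozygotes, against -0.13, 0.06 and 0.07 in heterozygotes. The libraries of each group lay within 0.4 of each other, and the change was -1.26 (SE 0.14, adjusted p = 0.00314). stab1l (current symbol stab1), of the same receptor family, stood at -1.06, -1.34 and -1.29 in homozygotes at 24 hpf, against 0.09, 0.02 and -0.11 in heterozygotes. For the 15-somite stage stab1l was -0.02, -0.12 and -0.23 in homozygotes, against -0.30, 0.27 and 0.03 in heterozygotes. The genotypes overlapped at the 15-somite stage and were 2.35-fold apart at 24 hpf, with a change of -1.11 (SE 0.18, adjusted p = 0.0119).

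vsg1 (current symbol plvapb), of endothelial diaphragms, stood at -3.0, -2.87 and -2.93 in homozygotes at 24 hpf, against 0.22, -0.10 and -0.12 in heterozygotes. vsg1 stood at -1.96, -1.43 and -1.24 in homozygotes of the 15-somite stage, against 0.32, -0.31 and -0.01 in heterozygotes. It was lower in every homozygous library and changed by -1.39 (SE 0.30, adjusted p = 0.0323). The apelin receptor gene aplnrb, the other member of the surface list called lower, differed by -0.78 at 24 hpf and -0.30 at the 15-somite stage and changed by -0.48 (SE 0.10, adjusted p = 0.0308). The calls of aqp8a.1, stab2 and stab1l held without each library in turn. That of vsg1 held only without hom a or without het 1 of the 15-somite stage (adjusted p 0.0545 to 0.0771 without each other library), and that of aplnrb held without hom 2 or het 1 of the 15-somite stage and without hom 2 or hom 3 of 24 hpf (0.0565 to 0.0744 without each other library).

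The arterial and venous lists had few other calls. Of 25 arterial and Notch pathway genes tested, all rows found, aqp8a.1 was the 1 called, a share (4%) near that of all genes (3.33%). The median change was -0.10, and 18 of the 25 lay below 0, against 9139 of the 18116 genes tested. At an unadjusted p below 0.05 by limma 10 were lower and 0 higher, against 1507 and 1893 of the 18116 genes tested. The Hox (39 of 48) and neural (24 of 33) lists also leaned below 0. So did the clock (27 of 38) and myogenic (24 of 31) lists, while other lists leaned above 0. The Notch ligand gene dll4, with a change of -0.02, and the arterial ephrin gene efnb2a, with -0.27, were not called (adjusted p = 0.985 and 0.197; both chosen after their values were seen). Of 12 venous and scavenger genes, 10 were tested, with stab2 called lower and cd36 called higher (20% called, against 3.33% of all genes). The row stab1l, whose current symbol is stab1, was called lower as described above and is not counted in this list. The listed name stab1 matched another row, which was not called. cd36, a fatty acid and scavenger receptor gene of several tissues, stood at 0.25, 0.31 and 0.32 in homozygotes at 24 hpf, against 0.60, -0.84 and 0.24 in heterozygotes. Its 15-somite values were -1.85, -2.79 and -2.35 in homozygotes, against -0.45, -0.12 and 0.57 in heterozygotes. At 24 hpf the genotypes overlapped, and its change was 2.63 (SE 0.52, adjusted p = 0.0247), a call that ended without hom b of the 15-somite stage or without hom 1 or hom 2 of 24 hpf (0.0544 to 0.0586).

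Several VEGF and angiopoietin receptor genes were low in homozygotes at both stages and were not called. These were chosen after their values were seen. The VEGF receptor gene kdrl differed by -1.11 at 24 hpf and -1.41 at the 15-somite stage (change 0.31, SE 0.14, adjusted p = 0.251). The angiopoietin receptor gene tie2 differed by -2.36 at 24 hpf and -2.16 at the 15-somite stage (change -0.20, SE 0.18, adjusted p = 0.597). flt1, which encodes another VEGF receptor, differed by -2.80 at 24 hpf and -5.24 at the 15-somite stage, and its change had a wide error (2.44, SE 0.78, adjusted p = 0.114). flt4, the VEGF-C receptor gene, differed by -1.45 at 24 hpf and -2.07 at the 15-somite stage and missed the threshold (change 0.62, SE 0.15, adjusted p = 0.0524). Of 28 VEGF, angiopoietin and ERK feedback genes tested, 4 were called higher and 1 lower (17.9%, against 3.33% of all genes); with no filter on level or with 1 prior spread for all genes, 1 higher and 0 lower were called. Besides tie1, dusp5 and nrp1b these were the ligand gene angpt1 (0.42 at 24 hpf and -0.24 at the 15-somite stage; change 0.66, SE 0.16, adjusted p = 0.0423) and the feedback inhibitor gene spry4 (0.02 at 24 hpf and 0.33 at the 15-somite stage; change -0.30, SE 0.07, adjusted p = 0.0383). The call of angpt1 held only without hom 2 of the 15-somite stage (0.0512 to 0.0955 without each other library), and that of spry4 ended without any of the 12 libraries (0.0502 to 0.0998).

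Leukocyte genes were called in both directions, and cybb and card9 had their deficit mainly at 24 hpf. cybb and card9 are in none of the lists and were chosen for their place among the 15 most negative changes. cybb, which encodes a subunit of the oxidase that phagocytes use to make superoxide, stood at -2.41, -1.61 and -1.72 in homozygotes at 24 hpf, against -0.07, 0.37 and -0.30 in heterozygotes. cybb at the 15-somite stage was at -0.05, -0.13 and 0.07 in homozygotes and at -0.02, -0.19 and 0.21 in heterozygotes. Homozygotes were 3.77-fold lower at 24 hpf and overlapped with heterozygotes at the 15-somite stage, and the change, -1.88 (SE 0.33, adjusted p = 0.0162), held without each library in turn. card9, a signalling adaptor gene of myeloid cells, stood at -0.99, -1.72 and -2.19 in homozygotes at 24 hpf, against 0.13, 0.11 and -0.24 in heterozygotes. Homozygotes of the 15-somite stage had card9 at 0.46, 0.05 and 0.51, against 0.42, 0.00 and -0.42 in heterozygotes. Its genotypes separated at 24 hpf alone, with a change of -1.97 (SE 0.42, adjusted p = 0.0308). lcp1, the leukocyte plastin gene, stood at -1.43, -1.23 and -1.72 in homozygotes at 24 hpf, against 0.30, -0.07 and -0.24 in heterozygotes. lcp1 was measured at -0.48, -0.28 and -0.38 in 15-somite homozygotes, against 0.30, -0.28 and -0.03 in heterozygotes. It was lower in homozygotes at both stages without overlap, by a narrow margin at the 15-somite stage, and changed by -1.08 (SE 0.24, adjusted p = 0.0322).

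The opposite direction was found for rac2, a GTPase gene of blood cells, which stood at -0.21, -0.15 and -0.37 in homozygotes at 24 hpf, against 0.03, -0.09 and 0.06 in heterozygotes. For the 15-somite stage rac2 was -0.86, -1.05 and -0.99 in homozygotes, against -0.04, 0.05 and -0.01 in heterozygotes. Every homozygous library was lower at both stages, by less at 24 hpf, and the change of 0.72 (SE 0.10, adjusted p = 0.00726) held without each library. Of 21 rows of neutrophil and general leukocyte genes, 14 were tested, and lcp1 and rac2 were the 2 called (14.3%, against 3.33% of all genes). The median change was -0.41, and it lay between -0.59 and -0.19 with 1 library left out. Among the 5 members at a high level at both stages it was 0.12, so its sign depended on the level minimum. The neutrophil peroxidase gene mpx and the common leukocyte gene ptprc, chosen after their values were seen, had changes of -3.90 (SE 1.43, adjusted p = 0.167) and -2.17 (SE 0.54, adjusted p = 0.0504). Of 17 macrophage rows only 3 reached the minimum level at both stages, and 1 was called (33.3%, against 3.33% of all genes). This was ctssb.1, a cathepsin gene, which differed by -0.20 at 24 hpf and -1.62 at the 15-somite stage. It changed by 1.43 (SE 0.32, adjusted p = 0.034). Leaving out 1 library ended the call of card9 in 8 cases (0.0506 to 0.0795), that of lcp1 in 9 (0.0505 to 0.0766) and that of ctssb.1 in 9 (0.0561 to 0.0864). The call of card9 held without hom b or het 1 of the 15-somite stage and without hom 1 or hom 3 of 24 hpf. Those of the others held without het 1 of the 15-somite stage and hom 2 and het 3 of 24 hpf for lcp1, and hom 2 and het 1 of the 15-somite stage and hom 3 of 24 hpf for ctssb.1.

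All called genes of red cells, heme synthesis and iron uptake were called upward. Of 40 listed, 39 rows were found and 37 tested; 7 changed upward and 0 downward (18.9% called, against 3.33% of all genes), 1 was lower at an unadjusted p below 0.05, and the median change was 0.32, with median genotype differences of 0.28 at 24 hpf and 0.02 at the 15-somite stage. cahz, the carbonic anhydrase gene of red cells, stood at 0.37, 0.30 and 0.16 in homozygotes at 24 hpf, against 0.14, -0.10 and -0.04 in heterozygotes. cahz stood at -0.58, -0.85 and -0.76 in homozygotes of the 15-somite stage, against -0.03, 0.12 and -0.09 in heterozygotes. It was above every heterozygous library at 24 hpf and below every one at the 15-somite stage, and the change, 1.0 (SE 0.13, adjusted p = 0.00494), held without each library. nt5c2l1, a nucleotidase-like gene, stood at 0.07, 0.51 and 0.31 in homozygotes at 24 hpf, against 0.14, -0.05 and -0.09 in heterozygotes. Its 15-somite values were -0.83, -1.3 and -0.75 in homozygotes, against -0.25, 0.25 and 0.01 in heterozygotes. The genotypes overlapped at 24 hpf only, and its change was 1.26 (SE 0.23, adjusted p = 0.0177), a call that ended without het 2 of 24 hpf (0.0503). tfr1a, the transferrin receptor gene through which red cells take up iron, stood at 1.19, 0.99 and 0.62 in homozygotes at 24 hpf, against 0.13, 0.03 and -0.16 in heterozygotes. tfr1a at the 15-somite stage was at 0.01, -0.27 and -0.29 in homozygotes and at -0.17, -0.21 and 0.38 in heterozygotes. It was 1.91-fold higher in homozygotes at 24 hpf, with overlapping genotypes at the 15-somite stage, and changed by 1.12 (SE 0.24, adjusted p = 0.031). Smaller changes were called for the heme synthesis gene urod (0.49), the biliverdin reductase gene blvrb (0.49), the carbonic anhydrase gene ca2 (0.49) and klf4. The calls of tfr1a, blvrb, urod and ca2 ended in 7, 7, 6 and 6 of the 12 cases with 1 library left out (0.0529 to 0.0738 for tfr1a, 0.0547 to 0.0724 for blvrb, 0.0539 to 0.0644 for urod and 0.0524 to 0.0762 for ca2). The call of tfr1a held without hom 3 of 24 hpf or hom a, het 1, het 2 or het 3 of the 15-somite stage. That of blvrb held without het 1 or het 3 of 24 hpf or hom 2, het 1 or het 2 of the 15-somite stage. That of urod held without hom 3 of 24 hpf or hom a, hom 2, het 1, het 2 or het 3 of the 15-somite stage. That of ca2 held without hom 2, hom 3 or het 3 of 24 hpf or hom a, hom 2 or het 1 of the 15-somite stage. The count for the list was 3 with 1 prior spread for all genes, 7 without the 15-somite library het 1, and 2 to 4 without hom b of the 15-somite stage or without hom 1, hom 2, het 1 or het 2 of 24 hpf. None of the globin rows was called; near-identical globin copies, among them 2 rows each of hbae1 and hbbe1.1, may share reads and are uncertain.

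Among 9 tested of 13 rows of blood progenitor regulators, 3 changed upward and 0 downward (33.3% called, against 3.33% of all genes). These were tal1 and lmo2, which the transcription factor list also holds, and drl. The median change was 0.61 over the list. drl, a zinc finger gene of lateral plate mesoderm and blood, stood at 0.45, 0.87 and 0.60 in homozygotes at 24 hpf, against -0.16, 0.21 and -0.05 in heterozygotes. Homozygotes of the 15-somite stage had drl at -0.62, -0.50 and -0.40, against -0.17, -0.13 and 0.30 in heterozygotes. It was above every heterozygous library at 24 hpf and below every one at the 15-somite stage, and its change was 1.15 (SE 0.26, adjusted p = 0.0348). That call held only without hom 2 or without het 1 of the 15-somite stage (0.0544 to 0.0857 without each other library).

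**Figure D3:**
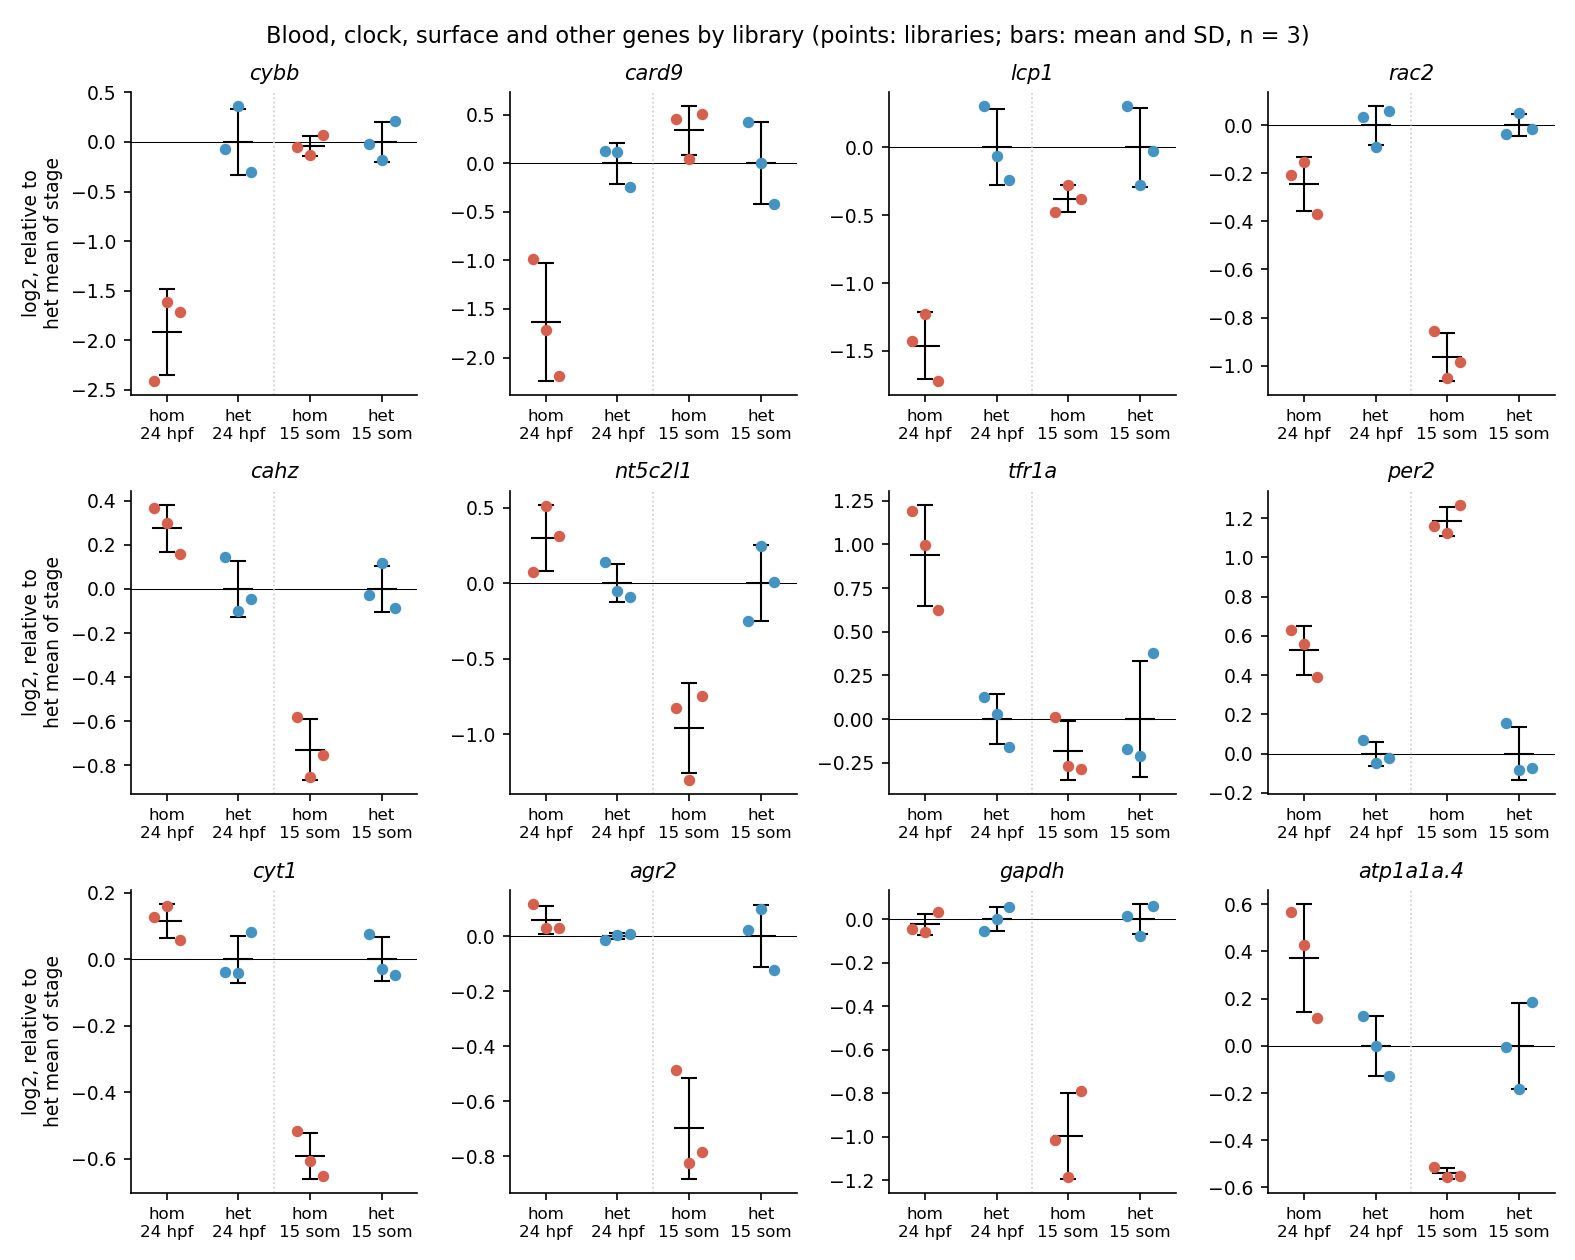
Log2 values by library, relative to the heterozygous mean of each stage, for 12 genes of leukocytes, red cells, the clock, the embryo's surface and metabolism; points are libraries, horizontal ticks means and bars SD (n = 3), with homozygotes left of heterozygotes and 24 hpf left of the 15-somite stage. The genes cybb and card9 are low in homozygotes at 24 hpf, tfr1a is high there, and cyt1, agr2, gapdh and atp1a1a.4 are low in homozygotes at the 15-somite stage.

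The list with the most calls held genes of lipid transport and plasma proteins, many of which at these stages are expressed mainly in the yolk syncytial layer, the tissue that exports yolk nutrients to the embryo. Of 46 listed, 45 rows were found and 34 tested; 23 changed upward and 0 downward (67.6% called, against 3.33% of all genes). Of the 34, 33 lay above 0, against 8977 of the 18116 genes tested, and the median change was 1.66. The median genotype difference was 0.09 at 24 hpf and -1.58 at the 15-somite stage. tfa, the transferrin gene, stood at 0.77, 0.44 and -0.08 in homozygotes at 24 hpf, against 0.37, -0.25 and -0.11 in heterozygotes. tfa was measured at -1.78, -2.67 and -1.54 in 15-somite homozygotes, against -0.36, 0.24 and 0.12 in heterozygotes. The genotypes overlapped at 24 hpf and were 3.98-fold apart at the 15-somite stage, and the change was 2.37 (SE 0.41, adjusted p = 0.0161). The fatty acid binding protein gene fabp1b.1 stood at 0.67, 0.39 and -0.39 in homozygotes at 24 hpf, against 0.57, -0.34 and -0.23 in heterozygotes. For the 15-somite stage fabp1b.1 was -1.73, -2.84 and -1.66 in homozygotes, against -0.26, 0.23 and 0.03 in heterozygotes. Hom b was the lowest library at the 15-somite stage and hom 3 the lowest of the homozygous libraries at 24 hpf, as for tfa, and the change was 2.30 (SE 0.49, adjusted p = 0.0304).

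Lipoprotein, clotting and transport genes of this list were called in the same direction. mtp, which loads lipid onto apolipoprotein B, differed by 0.11 at 24 hpf and -1.64 at the 15-somite stage and changed by 1.75 (SE 0.31, adjusted p = 0.017). The prothrombin gene f2 differed by 0.12 at 24 hpf and -1.59 at the 15-somite stage and changed by 1.71 (SE 0.26, adjusted p = 0.00884). The apolipoprotein gene apoc1l differed by -0.11 at 24 hpf and -1.23 at the 15-somite stage and changed by 1.12 (SE 0.16, adjusted p = 0.00712). The fibrinogen gene fgg, the retinol carrier gene rbp4 and the apolipoprotein genes apoa2 and apobl changed by 2.02, 1.64, 2.06 and 2.01, with adjusted p = 0.0347, 0.0437, 0.0275 and 0.0248. hnf4a, a nuclear receptor gene of endoderm and yolk layer, differed by 0.10 at 24 hpf and -1.19 at the 15-somite stage and changed by 1.29 (SE 0.27, adjusted p = 0.0282). The protease inhibitor genes serpina1l and fetub changed by 2.26 and 2.12 (adjusted p = 0.0351 and 0.0372). The phospholipid transfer gene pltp, the 1 member below 0, had a change of -0.03 that did not pass (adjusted p = 0.913).

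Only 4 of the 23 calls of the yolk layer list, those of tfa, mtp, f2 and apoc1l, held without each library in turn. With 1 prior spread for all genes the list had 5 calls. The number of calls was 24 without the 15-somite library het 1 and 25 without hom 2 of that stage; it fell to 5 and 6 without het 2 and het 3 of the 15-somite stage, and to 5, 4, 5 and 5 without hom 1, hom 2, het 2 and het 3 of 24 hpf. The median change over the list lay between 1.37, without hom b of the 15-somite stage, and 1.84 over these cases. At the 15-somite stage the homozygous libraries hom a, hom b and hom 2 of these genes were spread widely, with hom b the lowest in tfa and fabp1b.1.

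**Figure D4:**
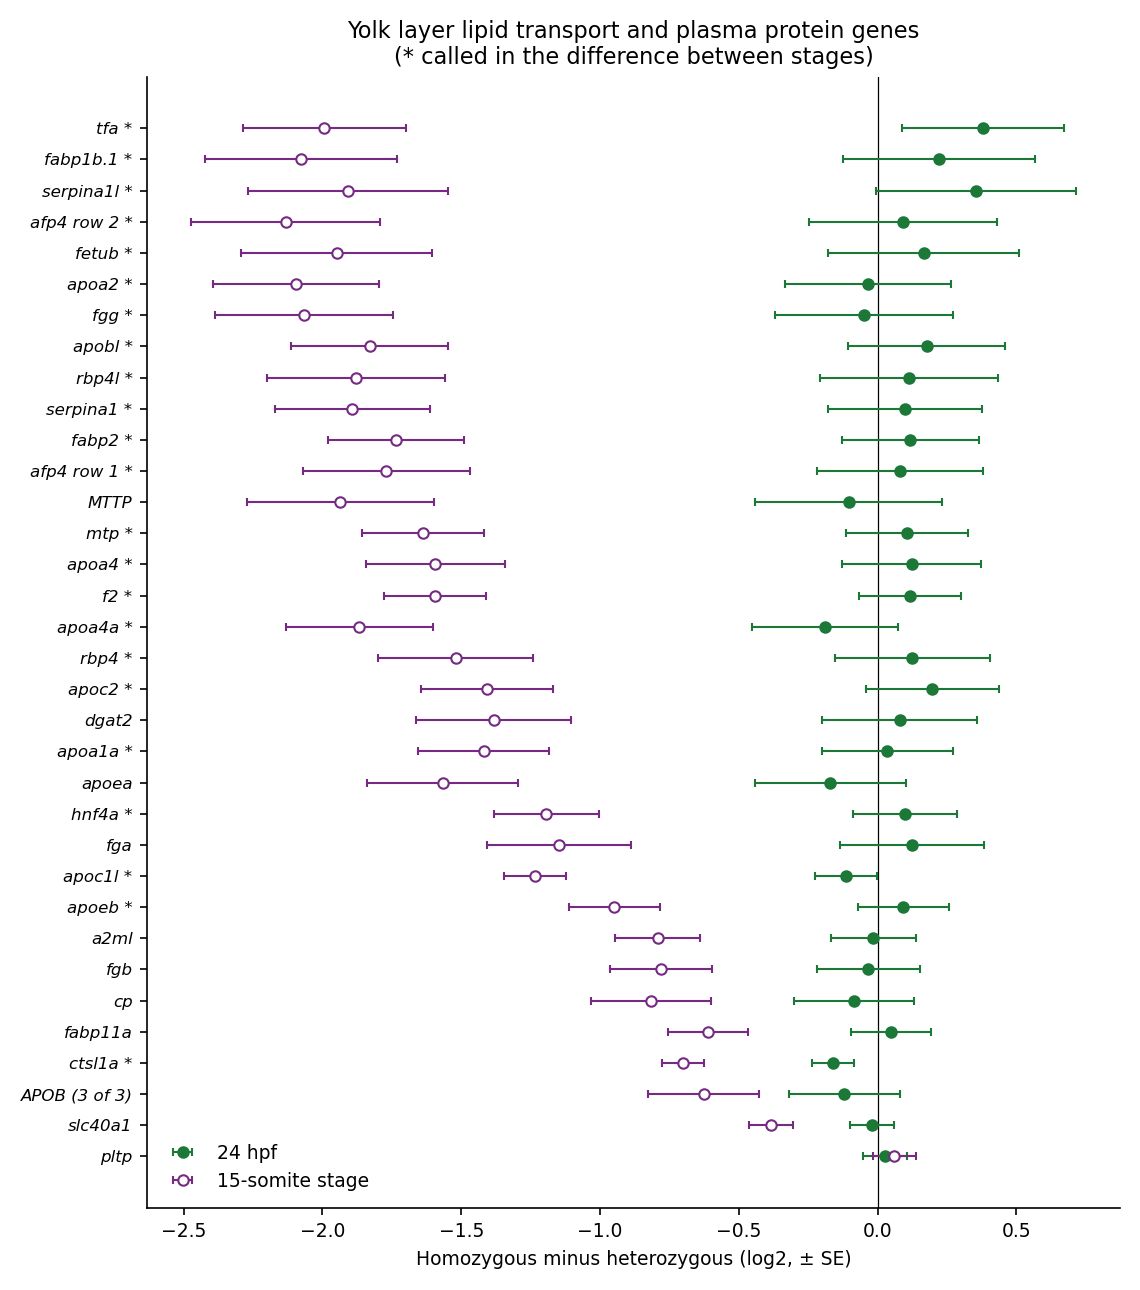
Genotype differences (log2, with SE) of the 34 tested genes of the yolk layer list at 24 hpf (filled) and at the 15-somite stage (open), ordered by their change, with a star at the 23 called genes. Filled points lie near 0, from -0.19 to 0.38, and open points of the called genes between -2.13 and -0.70.

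Surface tissues of the embryo showed a smaller change of the same kind. Of 37 epidermis and ionocyte genes, 36 rows were found and 35 tested; 15 changed upward and 0 downward (42.9% called, against 3.33% of all genes). All 35 lay above 0, against 8977 of the 18116 genes tested, and the median change was 0.39, with median genotype differences of 0.05 at 24 hpf and -0.35 at the 15-somite stage. The keratin gene cyt1 stood at 0.13, 0.16 and 0.06 in homozygotes at 24 hpf, against -0.04, -0.04 and 0.08 in heterozygotes. cyt1 stood at -0.52, -0.61 and -0.65 in homozygotes of the 15-somite stage, against 0.08, -0.03 and -0.05 in heterozygotes. Homozygotes overlapped with heterozygotes at 24 hpf and lay 1.51-fold below them at the 15-somite stage, with a change of 0.71 (SE 0.09, adjusted p = 0.0044). The keratin genes cyt1l and KRT23 (7 of 15) (current symbol krt92) changed by 0.65 and 0.67 (adjusted p = 0.00814 and 0.00901); keratin copies are alike in sequence and may share reads. The annexin gene anxa1c differed by 0.10 at 24 hpf and -0.55 at the 15-somite stage and changed by 0.65 (SE 0.10, adjusted p = 0.00798). EPCAM, an epithelial adhesion gene, differed by 0.11 at 24 hpf and -0.36 at the 15-somite stage and changed by 0.47 (SE 0.08, adjusted p = 0.0142). Calls of 7 members, cyt1, cyt1l, krt17, KRT23 (7 of 15), anxa1c, EPCAM and pfn1, held without each library in turn, and the count of calls lay between 7 and 16, with 15 without the 15-somite library het 1. With 1 prior spread for all genes it was 7. The count fell to 7 without hom 2, het 1 or het 2 of 24 hpf, to 8 without het 3 of the 15-somite stage, and to 9 or 10 without hom a, hom b, hom 2 or het 2 of the 15-somite stage or hom 1 of 24 hpf.

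The hatching gland, a band of cells over the yolk that secretes the hatching enzymes, gave 6 calls upward and 0 downward among 9 rows tested, all of those found (66.7% called, against 3.33% of all genes); all 9 lay above 0, with a median change of 0.77. agr2, a gene of secretory cells, stood at 0.12, 0.03 and 0.03 in homozygotes at 24 hpf, against -0.01, 0.00 and 0.01 in heterozygotes. Its 15-somite values were -0.49, -0.82 and -0.79 in homozygotes, against 0.02, 0.10 and -0.12 in heterozygotes. The genotypes did not overlap at either stage, with homozygotes slightly above heterozygotes at 24 hpf and 1.62-fold below them at the 15-somite stage, and the change of 0.76 (SE 0.12, adjusted p = 0.0117) held without each library. The cathepsin genes ctsl1b and ctslb, which may share reads, changed by 1.11 and 1.0 (adjusted p = 0.0382 and 0.0426). The secretory regulator gene xbp1 and the tetraspanin gene cd63 changed by 0.51 and 0.47 (adjusted p = 0.0249 and 0.0229). The row deposited as klf4, counted also in the transcription factor and red cell lists, changed by 0.46 (adjusted p = 0.0161). The hatching enzyme gene he1b, chosen after its value was seen, had a change of 1.24 and missed the threshold (SE 0.32, adjusted p = 0.0563). Leaving out 1 library ended the calls of ctsl1b, ctslb, xbp1 and cd63 in 8, 11, 6 and 4 cases (0.0671 to 0.0900 for ctsl1b, 0.0502 to 0.103 for ctslb, 0.0531 to 0.0632 for xbp1 and 0.0514 to 0.0624 for cd63). The call of ctsl1b held without hom 3 or het 3 of 24 hpf or hom 2 or het 1 of the 15-somite stage. That of ctslb held without hom 3 of 24 hpf. That of xbp1 held without hom 3 or het 3 of 24 hpf or hom 2, het 1, het 2 or het 3 of the 15-somite stage. That of cd63 ended without hom 2, het 1 or het 2 of 24 hpf and without hom b of the 15-somite stage. The count for the list was 2 with 1 prior spread for all genes. With 1 library left out it lay between 2 and 8, with 5 without the 15-somite library het 1, 8 without hom 3 of 24 hpf, and 2 or 3 without hom 1, hom 2, het 1 or het 2 of 24 hpf or hom a or hom b of the 15-somite stage.

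Circadian clock genes changed in both directions. Of 41 listed and found, 38 were tested; 3 changed downward and 2 upward (13.2% called, against 3.33% of all genes), and the median change was -0.12. per2, a clock gene that light induces in zebrafish, stood at 0.63, 0.56 and 0.39 in homozygotes at 24 hpf, against 0.07, -0.05 and -0.02 in heterozygotes. per2 at the 15-somite stage was at 1.16, 1.12 and 1.27 in homozygotes and at 0.15, -0.08 and -0.07 in heterozygotes. It was higher in every homozygous library at both stages, 1.44-fold at 24 hpf and 2.27-fold at the 15-somite stage, and its change was -0.66 (SE 0.12, adjusted p = 0.0162). cry2a (current symbol cry3a), of the cryptochrome repressors, stood at -0.13, -0.02 and -0.03 in homozygotes at 24 hpf, against -0.01, 0.03 and -0.02 in heterozygotes. Homozygotes of the 15-somite stage had cry2a at 0.35, 0.49 and 0.46, against -0.05, 0.03 and 0.02 in heterozygotes. The genotypes overlapped at 24 hpf and were apart at the 15-somite stage, with a change of -0.49 (SE 0.08, adjusted p = 0.0121). per1b, another period gene, differed by 0.40 at 24 hpf and 0.79 at the 15-somite stage and changed by -0.40 (SE 0.09, adjusted p = 0.0394). bhlhe41, a repressor gene of the clock, differed by 0.15 at 24 hpf and -1.37 at the 15-somite stage and changed by 1.52 (SE 0.32, adjusted p = 0.0306). A second cryptochrome row, deposited as CRY2, differed by -0.05 at 24 hpf and -0.91 at the 15-somite stage and changed by 0.86 (SE 0.19, adjusted p = 0.0323).

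The calls of per2 and cry2a held without each library in turn. That of per1b held only without het 3 of the 15-somite stage or het 1 of 24 hpf (0.0506 to 0.0989 without each other library), and those of bhlhe41 and CRY2 ended in 7 cases each (0.0570 to 0.0733 and 0.0532 to 0.0809). The call of bhlhe41 held without hom 3 of 24 hpf or hom a, hom b, hom 2 or het 1 of the 15-somite stage. That of CRY2 held without hom 3 or het 1 of 24 hpf or hom a, hom 2 or het 1 of the 15-somite stage. cry1a, chosen after its value was seen, missed the threshold with a change of -0.62 (SE 0.16, adjusted p = 0.0528). Of the 20 light-induced and DNA repair genes tested, all of those found, per2 was the 1 called, near the share of all genes. The median change was -0.16, and 15 lay below 0, against 9139 of the 18116 genes tested. By limma 8 were lower and 2 higher at an unadjusted p below 0.05, against 1507 and 1893 of the 18116.

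Single genes of metabolism and ion transport were called in lists with few other calls. gapdh, the glycolytic enzyme gene, stood at -0.04, -0.06 and 0.03 in homozygotes at 24 hpf, against -0.06, 0.00 and 0.06 in heterozygotes. gapdh was measured at -1.01, -1.19 and -0.79 in 15-somite homozygotes, against 0.02, -0.08 and 0.06 in heterozygotes. The genotypes could not be told apart by library at 24 hpf, and homozygotes were 2.00-fold lower at the 15-somite stage; the change of 0.97 (SE 0.12, adjusted p = 0.0047) held without each library. eno3, the muscle enolase gene, differed by -0.01 at 24 hpf and -0.52 at the 15-somite stage and changed by 0.51 (SE 0.11, adjusted p = 0.029), a call that ended in 8 cases (0.0504 to 0.0725) and held without het 3 of 24 hpf or hom 2, het 1 or het 2 of the 15-somite stage. These were the only 2 called of 48 skeletal muscle genes, a share near that of all genes, and the muscle list had a median change of 0.01. atp1a1a.4, a sodium pump subunit gene of pronephros and ionocytes, stood at 0.57, 0.43 and 0.12 in homozygotes at 24 hpf, against 0.13, 0.00 and -0.13 in heterozygotes. For the 15-somite stage atp1a1a.4 was -0.51, -0.56 and -0.55 in homozygotes, against 0.00, -0.18 and 0.19 in heterozygotes. Its genotypes overlapped at 24 hpf, and the change was 0.91 (SE 0.16, adjusted p = 0.0175), without dependence of the call on any 1 library. trpm7, an ion channel gene, was the other of 18 pronephros genes called (11.1% called, against 3.33% of all genes). Its change was -0.40 (SE 0.09, adjusted p = 0.0361), a call that ended in 10 cases (0.0551 to 0.0961) and held without hom a or het 1 of the 15-somite stage.

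The remaining lists held 0 or few calls. The neuronal RNA-binding gene elavl3 (-0.51, SE 0.12, adjusted p = 0.0402) was the 1 called of 33 neural genes, hoxd3a (-0.37, SE 0.09, adjusted p = 0.0478) the 1 of 48 Hox genes and the proteoglycan gene lum (1.13, SE 0.26, adjusted p = 0.0372) the 1 of 38 fibroblast, mural and matrix genes, all shares near that of all genes. These 3 calls ended in 8, 11 and 10 cases with 1 library left out (0.0676 to 0.0986 for elavl3, 0.0553 to 0.115 for hoxd3a and 0.0540 to 0.0912 for lum). The call of elavl3 held without hom 2, het 1, het 2 or het 3 of the 15-somite stage. That of hoxd3a held without het 1 of the 15-somite stage. That of lum held without hom 2 or het 2 of the 15-somite stage. Of 11 endoderm genes tested of 17 found, 3 changed upward and 0 downward (27.3% called, against 3.33% of all genes). These were tfa, fabp2 and hnf4a, which the yolk layer list also holds. fabp2 changed by 1.85 (SE 0.35, adjusted p = 0.0201), a call that ended without hom 2 or het 2 of 24 hpf (0.0515 to 0.0555). By limma 0 of 15 cardiac genes were called, and the median change was 0.49. At an unadjusted p below 0.05, 0 were lower and 6 higher, against 1507 and 1893 of the 18116 genes tested. The heart factor gene gata5 had a change of 1.07 (SE 0.35, adjusted p = 0.119) and the cardiac myosin light chain gene cmlc1 of 1.08 (SE 0.35, adjusted p = 0.119). Of 31 myogenic and paraxial mesoderm genes 0 were called by limma, with 6 negative and 2 positive changes at an unadjusted p below 0.05, and the median change was -0.16; tbx6 stood at -0.59 (adjusted p = 0.0563) and wnt8a at -0.73 (adjusted p = 0.178).

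The other 7 lists without a call by limma had median changes of 0.22 or less in size. Counts in parentheses are of negative and positive changes at an unadjusted p below 0.05, which over all genes tested were 1507 and 1893 of 18116. Notochord and floor plate genes had a median of -0.03 (1 and 1 of 14, with foxa2 at 0.38 and foxa at 0.36), and neural crest and pigment genes 0.22 (0 and 3 of 16, with tyrp1b at 0.97 and pnp4a at -0.97). Lens genes had a median of 0.04 (1 and 0 of 6, with mipa at -0.97 and crygn2 at 0.22) and germ cell genes -0.17 (0 and 1 of 7, with nanos3 at 0.75 and vasa at 0.53). The response lists stood at -0.01 for hypoxia (0 and 3 of 23, with slc2a1a at 1.17 and epas1a at 0.77) and 0.05 for p53 and stress (0 and 0 of 28, with junba at 0.58 and hsp70l at -0.55). The cell cycle list stood at 0.09 (0 and 1 of 24, with cdk1 at 0.29 and birc5a at 0.21).

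**Figure D5:**
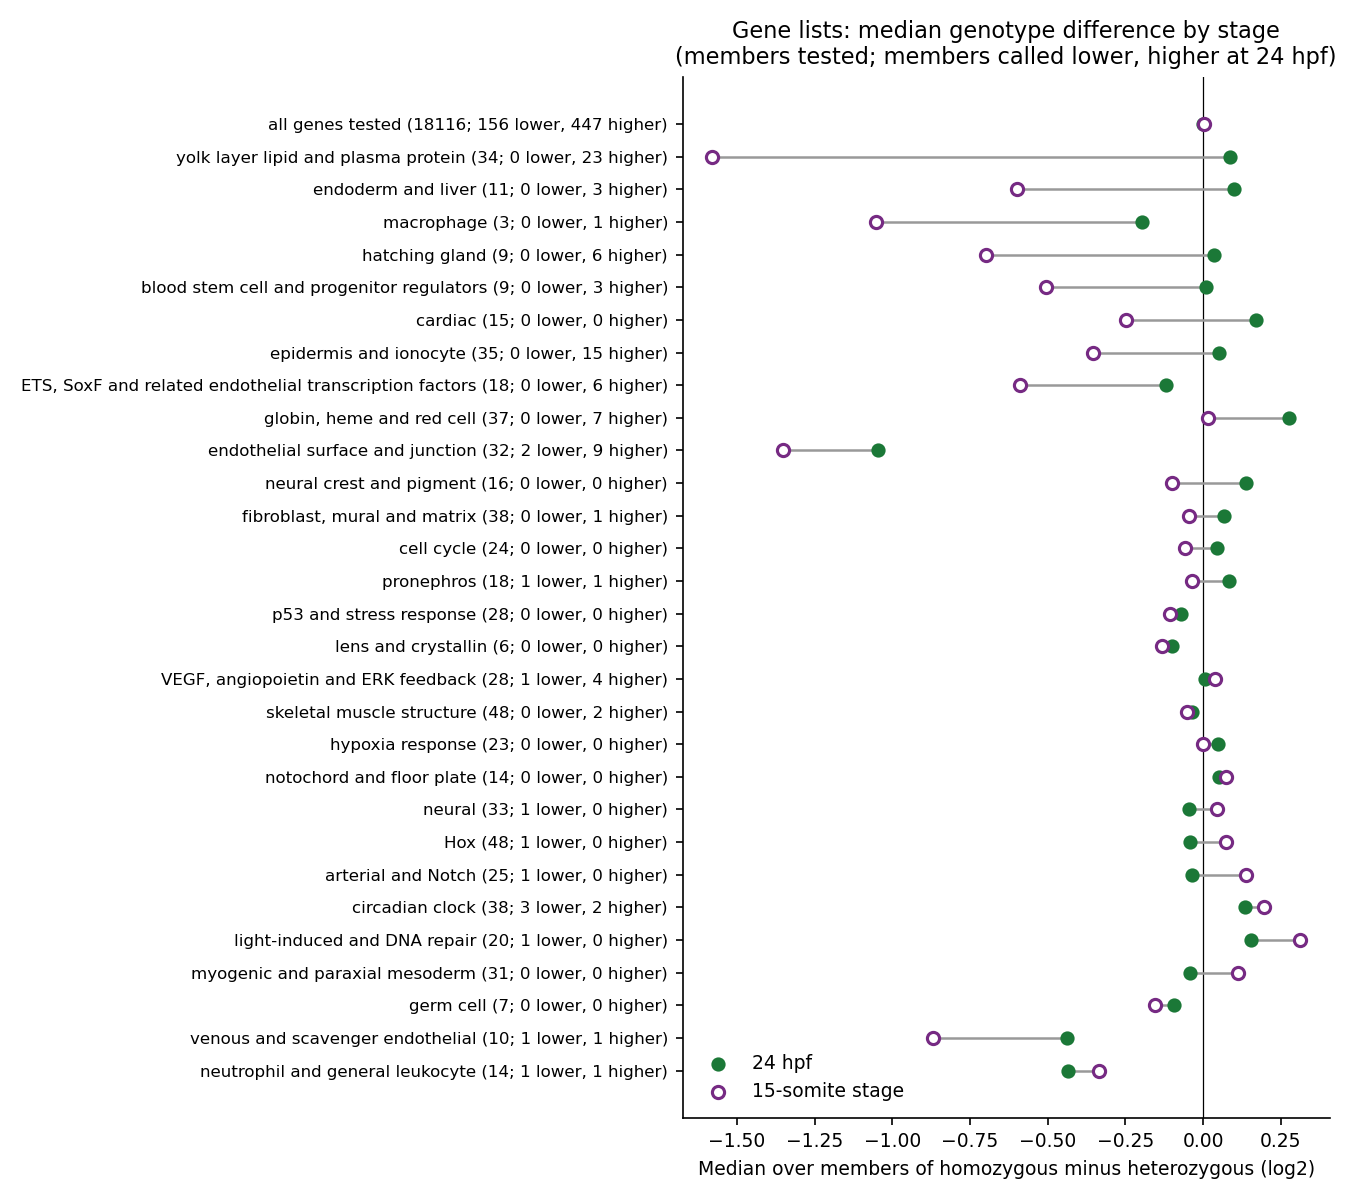
Median genotype difference (log2) over the tested members of each list at 24 hpf (filled) and at the 15-somite stage (open), with the number tested and called beside each name; lists are ordered by their median change, with all genes tested at the top. The yolk layer list runs from 0.09 at 24 hpf to -1.58 at the 15-somite stage, and the endothelial surface list is below -1 at both stages.

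Genes near etv2 on chromosome 16 held a share of calls near that of all genes. Within 5 Mb of etv2 in the RefSeq annotation of assembly GRCz12tu, which is not the authors' build, 116 genes were tested; 5 changed upward and 0 downward (4.31%, against 3.33% of all genes), and the median change was 0.04. With 1 prior spread for all genes 1 was called, and with the replicate block at 24 hpf 3. selenbp1 differed by 0.19 at 24 hpf and -0.41 at the 15-somite stage and changed by 0.60 (SE 0.09, adjusted p = 0.0108), a call that held without each library. The 2 rows of afp4 carry the same symbol and may share reads, and both calls ended in 6 cases. They changed by 1.85 and 2.23 (adjusted p = 0.0364 and 0.0309) and also belong to the yolk layer list. BX323793.1 and zgc:174938 changed by 0.47 and 0.39 (adjusted p = 0.031 and 0.049), calls that ended in 8 and 11 cases with 1 library left out (0.0504 to 0.0745 and 0.0593 to 0.121). The call of BX323793.1 held without hom 1 of 24 hpf or hom b, het 1 or het 2 of the 15-somite stage. That of zgc:174938 held without hom b of the 15-somite stage.

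Outside the lists, most of the largest positive changes were of genes low in homozygotes at the 15-somite stage and not at 24 hpf. pde6c, the cone phosphodiesterase gene, differed by 0.62 at 24 hpf and -3.08 at the 15-somite stage and changed by 3.71 (SE 0.82, adjusted p = 0.0334), with hom b at -4.76 against -1.92 and -2.56 in hom a and hom 2. The aldo-keto reductase gene akr1a1a, the zinc transporter gene slc30a1b and the lipid droplet gene cideb changed by 2.83, 2.57 and 2.55 (adjusted p = 0.029, 0.034 and 0.0363). plbd1, a phospholipase-like gene, stood at 0.42, -0.28 and -0.35 in homozygotes at 24 hpf, against 0.09, -0.13 and 0.05 in heterozygotes. plbd1 stood at -2.76, -2.90 and -2.20 in homozygotes of the 15-somite stage, against -0.74, 0.20 and 0.54 in heterozygotes. The genotypes overlapped at 24 hpf, and the change of 2.55 (SE 0.45, adjusted p = 0.0168) held without each library in turn. vmo1b differed by 0.52 at 24 hpf and -1.97 at the 15-somite stage and changed by 2.49 (SE 0.44, adjusted p = 0.0174), a call that ended without het 2 of 24 hpf (0.0503). The calls of pde6c, akr1a1a, slc30a1b and cideb ended in 8, 7, 8 and 9 cases (0.0579 to 0.0790, 0.0536 to 0.0700, 0.0512 to 0.0864 and 0.0527 to 0.0912). The call of pde6c held without hom a, hom b, hom 2 or het 1 of the 15-somite stage. That of akr1a1a held without hom 3, het 1 or het 2 of 24 hpf or hom 2 or het 1 of the 15-somite stage. That of slc30a1b held without hom 2 or het 1 of 24 hpf or hom 2 or het 1 of the 15-somite stage. That of cideb held without hom 3 of 24 hpf or hom 2 or het 1 of the 15-somite stage.

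Among the most negative changes outside the lists, 3 were of genes higher in homozygotes at the 15-somite stage and near heterozygotes at 24 hpf. gad1a, an enzyme gene of GABA synthesis, differed by -0.18 at 24 hpf and 1.46 at the 15-somite stage and changed by -1.64 (SE 0.37, adjusted p = 0.0351). susd5 differed by -0.13 at 24 hpf and 1.17 at the 15-somite stage and changed by -1.3 (SE 0.27, adjusted p = 0.0304), and fam131bb by 0.16 at 24 hpf and 1.3 at the 15-somite stage, with a change of -1.14 (SE 0.24, adjusted p = 0.0295). TSPAN17, a tetraspanin gene, was lower at 24 hpf (-0.87 at 24 hpf and 0.33 at the 15-somite stage; change -1.2, SE 0.29, adjusted p = 0.046), and shank2, a scaffold gene, turned its sign (-0.73 at 24 hpf and 1.2 at the 15-somite stage; change -1.93, SE 0.43, adjusted p = 0.034). These 5 calls ended in 9, 7, 6, 11 and 9 cases (0.0513 to 0.0861, 0.0587 to 0.0770, 0.0583 to 0.0770, 0.0536 to 0.0969 and 0.0576 to 0.0841). The call of gad1a held without hom 1 or het 3 of 24 hpf or het 2 of the 15-somite stage. That of susd5 held without hom 3 or het 3 of 24 hpf or hom 2, het 1 or het 3 of the 15-somite stage. That of fam131bb held without hom 3 or het 1 of 24 hpf or hom 2, het 1, het 2 or het 3 of the 15-somite stage. That of TSPAN17 held without het 3 of the 15-somite stage. That of shank2 held without hom 3 of 24 hpf or hom 2 or het 3 of the 15-somite stage.

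The called genes higher in homozygotes mainly at 24 hpf were few: tfr1a, ugt5b3, a glucuronosyltransferase gene, and SLC22A3, an organic cation transporter gene. ugt5b3 stood at 0.94, 0.78 and 0.96 in homozygotes at 24 hpf, against 0.12, 0.00 and -0.12 in heterozygotes. Its 15-somite values were -0.02, -0.32 and -0.10 in homozygotes, against -0.17, -0.12 and 0.30 in heterozygotes. It was 1.85-fold higher in homozygotes at 24 hpf and overlapped at the 15-somite stage, with a change of 1.04 (SE 0.23, adjusted p = 0.036). SLC22A3 differed by 0.63 at 24 hpf and -0.41 at the 15-somite stage and changed by 1.04 (SE 0.22, adjusted p = 0.0306). Their calls ended in 11 and 9 cases (0.0526 to 0.0861 and 0.0524 to 0.0736). The call of ugt5b3 held without het 1 of the 15-somite stage. That of SLC22A3 held without hom 3 of 24 hpf or hom 2 or het 1 of the 15-somite stage. Of the 260 called genes below 0.5 at both stages, the 3 with the largest changes among those with a descriptive symbol were rab25, a trafficking GTPase gene of epithelia (0.74, SE 0.13, adjusted p = 0.0168), cd248b (0.70, SE 0.16, adjusted p = 0.0357) and fam176a (current symbol eva1ab; 0.68, SE 0.13, adjusted p = 0.0221). The call of rab25 held without each library, and those of cd248b and fam176a ended in 9 and 2 cases (0.0606 to 0.0803 and 0.0552 to 0.0613). The call of cd248b held without het 1 of 24 hpf or hom 2 or het 1 of the 15-somite stage. That of fam176a ended without hom 2 or het 2 of 24 hpf. Of the 85 genes named by rule that were called, 29 held without each library in turn.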

How the data were processed

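RNA of pooled whole embryos was sequenced in 12 libraries, made with the NEB Next Ultra kit per the labels' protocols. The authors deposited 1 table per stage of log2 values, and the files show that normalized values were floored at 1 before the log and centred on each gene's median over the 6 libraries of its table. The submitters' processing notes name DESeq and the build Zv9; not given in the sources used here are aligner, counter, annotation, strand use and versions, so reads of overlapping or antisense genes cannot be told apart. Because of the centring, levels are not comparable between genes or stages, and a gene's level range was read from the rounding step of its values, which widens with the log2 level before centring. Whole reads could not be recovered (43.7% to 57.5% of low values came out whole within 0.02 read), so no count test was run.

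Both tables were joined by gene ID (31172 rows). The difference of genotype differences was fitted with limma 3.58.1 (R 4.3.3) over all 12 libraries, with 8 residual degrees of freedom. The prior spread was set separately for genes at a high level at both stages (10422 genes, prior SD 0.0917) and for the others (prior SD 0.261). Genes with a median of 16 or above at both stages were tested, two-sided, with Benjamini-Hochberg adjustment over 18116 genes and a threshold of 0.05. The analysis was tested on simulated data.

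The members, gene lists and tests were chosen with earlier results of these data known. Genes were named by a rule: etv2, the 15 most negative and 15 most positive calls with a descriptive symbol, up to 5 called members of each list (2 where none was called) and 3 of each pattern of the stages. A gene outside the rule is named as chosen after its values were seen, or as a called member of its list. Of the gene IDs, 17972 matched a RefSeq symbol and 20756 the table of gene names. Alternatives were the level minimum, the prior, scaling, library weights, a replicate block, a minimum size of 1, and leaving out each library. Promoter and protein sequences were not used here.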

Additional observations from a re-analysis of the deposited data

Results flagged for a closer look

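Among the named genes, 5 stood out because the genotypes differed by 0.5 or more on the log2 scale at both stages and in opposite directions, with every homozygous library on one side of every heterozygous library at 24 hpf and on the other side at the 15-somite stage. The difference itself was tested with limma, as for all genes. The genes were named by the size of this same change, by their pattern or, for drl, as a called member of the blood progenitor list. The 5 are therefore a description. Among all genes tested, 46 differed by 0.5 or more at both stages in opposite directions, higher in homozygotes at 24 hpf. Of these, 10 were called. A further 47 did so with homozygotes lower at 24 hpf, and 6 of these were called. These counts use size and sign alone, without the separation of libraries that the 5 also met. The margin between genotypes was narrow for HYAL1 (2 of 2) at the 15-somite stage and for echdc1 at 24 hpf.

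ms4a17a.16, of a family of membrane proteins, stood at -1.18, -1.14 and -1.47 in homozygotes at 24 hpf, against -0.16, 0.28 and -0.12 in heterozygotes. ms4a17a.16 at the 15-somite stage was at 0.85, 1.38 and 1.51 in homozygotes and at -0.72, 0.50 and 0.22 in heterozygotes. Its change was -2.51 (SE 0.41, adjusted p = 0.0139), and the call held without each library in turn. HYAL1 (2 of 2), a hyaluronidase gene, stood at -2.02, -0.65 and -1.17 in homozygotes at 24 hpf, against -0.20, 0.12 and 0.09 in heterozygotes. Homozygotes of the 15-somite stage had HYAL1 (2 of 2) at 1.26, 0.92 and 0.34, against -0.24, -0.07 and 0.31 in heterozygotes. Its change was -2.12 (SE 0.46, adjusted p = 0.0321), and the call ended in 9 of 12 cases with 1 library left out (0.051 to 0.0813) and held without hom 2 of 24 hpf or hom 2 or het 3 of the 15-somite stage. echdc1, which encodes a decarboxylase, stood at -0.91, -0.31 and -0.58 in homozygotes at 24 hpf, against 0.39, -0.12 and -0.27 in heterozygotes. echdc1 was measured at 0.61, 0.82 and 0.69 in 15-somite homozygotes, against -0.06, -0.01 and 0.07 in heterozygotes. Its change was -1.31 (SE 0.28, adjusted p = 0.0321), and the call ended in 9 cases (0.0503 to 0.0766) and held without hom 2 or het 3 of 24 hpf or het 1 of the 15-somite stage.

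FLVCR2 (1 of 2), of a family of heme and choline transporters, stood at 0.30, 0.91 and 0.35 in homozygotes at 24 hpf, against 0.17, -0.09 and -0.08 in heterozygotes. For the 15-somite stage FLVCR2 (1 of 2) was -1.66, -3.28 and -2.27 in homozygotes, against -0.62, 0.56 and 0.06 in heterozygotes. It was higher in homozygotes at 24 hpf and lower at the 15-somite stage, with a change of 2.92 (SE 0.54, adjusted p = 0.0193) that ended without hom 2 or het 2 of 24 hpf (0.0519 to 0.0521). drl had a change of 1.15 (SE 0.26, adjusted p = 0.0348) in the same direction, and its values by library are given with the blood progenitor genes.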

How the results depend on the processing

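The number of calls depended on the settings, against 156 lower and 447 higher genes as reported. A single prior spread for all genes gave 52 lower and 188 higher, the replicate block at 24 hpf 76 and 291, and a minimum size of 1 on the log2 scale 23 and 166. Quantile normalization gave 246 lower and 527 higher, and weighting by library 241 and 617. Leaving out 1 library gave 32 to 159 lower and 146 to 532 higher genes; in each case the lowest count was without het 2 of 24 hpf and the highest without het 1 of the 15-somite stage, and the causes were not tested. Of the 603 calls, 223 were shared with the fit with 1 prior spread, 342 with the replicate block, 594 with quantile normalization and 173 with the fit without het 2 of 24 hpf. Same-numbered libraries deviated together little at 24 hpf (r = 0.1002, 0.0302 and 0.0116 across genes, which are not independent), so the numbers were not taken as pairs; hom 1 and hom 2 of 24 hpf correlated best with the heterozygous library of their own number and hom 3 did not. No block could be set at the 15-somite stage, where 2 homozygous columns share a header.

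For the 85 called genes named by rule, 755 values under settings other than leaving out a library kept the call in the same direction. A further 148, in the same direction, did not. These counts include the minimum size of 1, which reuses the p-values reported above and drops calls by size alone. With 1 library left out the counts were 591 and 429. None of the 85 changed sign under any of these settings. crygn2, which was not called, had a change of -0.00335 without hom b of the 15-somite stage and of 0.56 at most with 1 library left out. Total depth is unknown, and low genes and values near the floor are limited most.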

Other observations

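Some leukocyte rows had a median below 16 at 1 of the stages and were not among the genes tested above. They are described here by their values alone, with no test of a change, because a row that is low at 1 stage enters through the other. The rows were 7 of the macrophage list and 4 of the neutrophil and general leukocyte list.

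Of the macrophage rows, mfap4, a macrophage marker gene in zebrafish, stood at -3.57, -6.19 and -5.19 in homozygotes at 24 hpf, against 0.02, -0.24 and 0.21 in heterozygotes. Its median at the 15-somite stage was below 4, and no genotype difference can be read there. The chemokine receptor gene cxcr3.2 was low in homozygotes at both stages, with genotype differences of -2.96 at 24 hpf and -2.46 at the 15-somite stage. The phagocytic receptor gene timd4 differed by 0.31 at 24 hpf and -2.91 at the 15-somite stage, with the heterozygotes of 24 hpf spread widely. The cathepsin row ctssb.2 differed by -0.79 at 24 hpf and -1.06 at the 15-somite stage, and its genotypes overlapped at 24 hpf. The complement gene c1qa and the receptor gene csf1ra showed no deficit of homozygotes at 24 hpf beyond the spread of libraries. Each differed there by -0.05, with overlapping genotypes. csf1ra is also a member of the neural crest and pigment list, so its value need not be that of macrophages. For the antigen presentation gene cd74a the median at 24 hpf was below 4, and no genotype difference can be read there.

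Of the neutrophil and general leukocyte rows, the lysozyme gene lyz stood at -2.65, -3.35 and -2.71 in homozygotes at 24 hpf, against 0.07, -0.18 and 0.11 in heterozygotes. The granule proteoglycan gene srgn stood at -5.45, -3.52 and -3.90 in homozygotes at 24 hpf, against 0.10, -0.12 and 0.02 in heterozygotes, and spi1l, of the Spi1 family of ETS factors, at -3.42, -4.10 and -2.05 in homozygotes, against -0.05, 0.00 and 0.05 in heterozygotes. In these 3 every homozygous library of 24 hpf lay below every heterozygous one, and at the 15-somite stage, where they were below the minimum, the genotypes overlapped. mmp13a, a collagenase gene, stood at -0.83, -0.90 and -1.04 in homozygotes at 24 hpf, against 0.34, -0.35 and 0.01 in heterozygotes. It was at the 15-somite stage at -5.86, -5.77 and -4.35 in homozygotes, against -0.18, 0.12 and 0.06 in heterozygotes, so that the groups were apart at both stages. Its median at the 15-somite stage was below 16, so its homozygous values there may lie near the floor of 1 and the size is uncertain.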
